A study of Homo sapiens with 4 samples.

Results

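The 44 human collagen genes, those whose symbol is COL, a number, A and a number, were followed through RNA sequencing of cardiac cultures of NKX2.5:GFP hESCs. They were found by Ensembl identifier among the 60234 genes of the counts table, antisense RNAs and pseudogenes left out, and all 44 were present. In this established hESC line 1 NKX2-5 allele carries the GFP sequence, and cells that have switched on this cardiac transcription factor fluoresce. All 4 groups came from this line, differentiated as spin embryoid bodies with cytokines and sorted at day 31, and each was 1 library. The RA GFP-positive and RA GFP-negative cells had received 1 µM retinoic acid from day 4 to day 7, and the control (CTR) GFP-positive and CTR GFP-negative cells DMSO over the same days. RA and CTR cells grew in separate cultures, so that RA and other differences between the cultures cannot be told apart. The GFP-negative fraction is defined only by the lack of GFP and can hold several cell types. The questions were which collagens the cardiac and the remaining cells transcribed, and how RA-treated cells differed from controls.

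Collagens are secreted proteins in which 3 chains wind into a triple helix, and each chain has its own gene. Fibrillar collagens, such as types I, III and V, form the tensile fibres of connective tissue, whereas type IV builds the sheet of the basement membrane that surrounds muscle cells, epithelia and vessels. FACIT collagens sit on the surface of fibrils, type VI forms beaded filaments around cells, type VIII forms hexagonal lattices, and transmembrane collagens are anchored in the cell surface. In the heart, fibroblasts are known as the main source of types I and III, and the deposited matrix carries the force of contraction.

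Between 4371101 and 28643091 reads were counted per library. The CTR GFP-negative library was the smallest, and the other libraries held 26222787 reads or more. Counts were divided by library size, corrected for composition by TMM factors, to give CPM (reads per megaread), and differences were taken in log2(CPM + 1), a scale that understates differences of low genes. Intervals are 95% intervals (exact Poisson for a CPM, Clopper-Pearson for a ratio of CPM) that take only the error of counting into account. As each group is 1 library, the conditions were not tested against each other and their differences lack replication. A gene was called higher or lower from a 2-fold difference in CPM + 1, among genes that reached 10 CPM in 1 or both libraries of the pair. The sort was visible in the 8 cardiomyocyte markers, including NKX2-5, TNNT2 and MYH6, whose summed level was 18050.5 CPM in CTR and 15408 CPM in RA GFP-positive cells, against 835 CPM and 396 CPM in the GFP-negative cells. All 8 had reads in every library.

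Collagen genes took 1.37% of all reads in CTR GFP-positive cells (interval 1.37% to 1.38%), 2.57% in RA GFP-positive cells (2.56% to 2.57%), 5.51% in CTR GFP-negative cells (5.49% to 5.53%) and 8.05% in RA GFP-negative cells (8.04% to 8.06%). Both GFP-negative libraries thus lay above both GFP-positive libraries, and within each fraction the RA library lay above the control. Summed over the 44 genes, CPM were 3.74 times as high in GFP-negative as in GFP-positive cells of the control and 3.05 times as high with RA. COL1A1, COL1A2 and COL3A1 accounted for 71.3% of the collagen reads in RA GFP-negative cells and 60.4% in CTR GFP-negative cells, but for 53.7% in RA and 27.1% in CTR GFP-positive cells. In the CTR GFP-positive library basement membrane collagens made up 22.3% of the collagen reads and the multiplexins 13.9%, while in RA GFP-negative cells the fibrillar class alone made up 77.7%. Mitochondrial genes took 14.1% and 14.9% of the reads in CTR and RA GFP-positive cells and 7.48% and 5.56% in the GFP-negative cells. At least 4 reads were found for 44 collagens in CTR GFP-positive, 41 in RA GFP-positive, 42 in CTR GFP-negative and 44 in RA GFP-negative cells. At a level of 10 CPM the numbers were 29, 31, 35 and 35, and 28 genes reached it in every library.

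**Figure D1:**
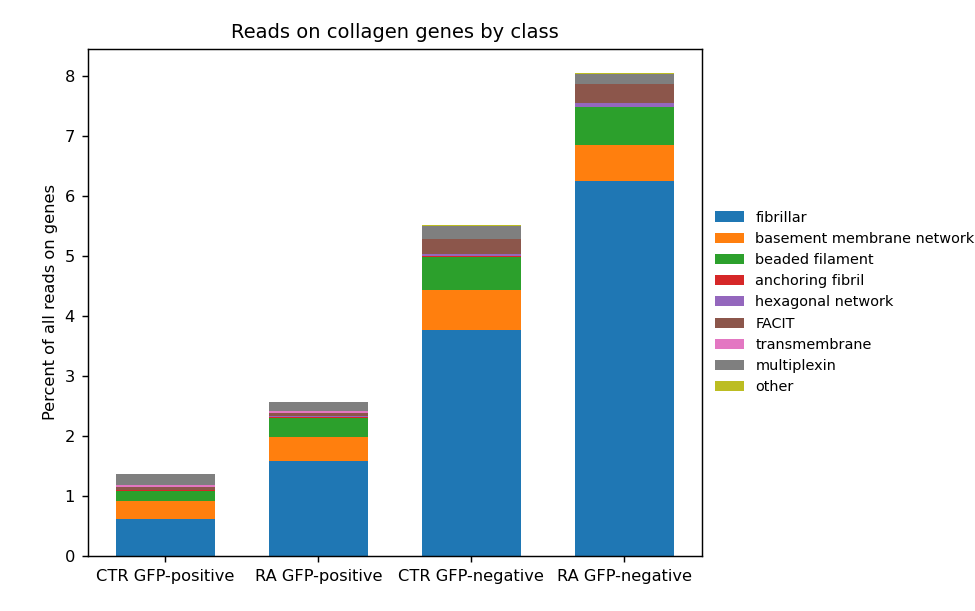
Percent of all reads on genes that fell on collagen genes, as 1 stacked bar per library and 1 colour per collagen class. The bars reach 1.37%, 2.57%, 5.51% and 8.05%, and the fibrillar class is the largest block in each of them.

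**Figure D2:**
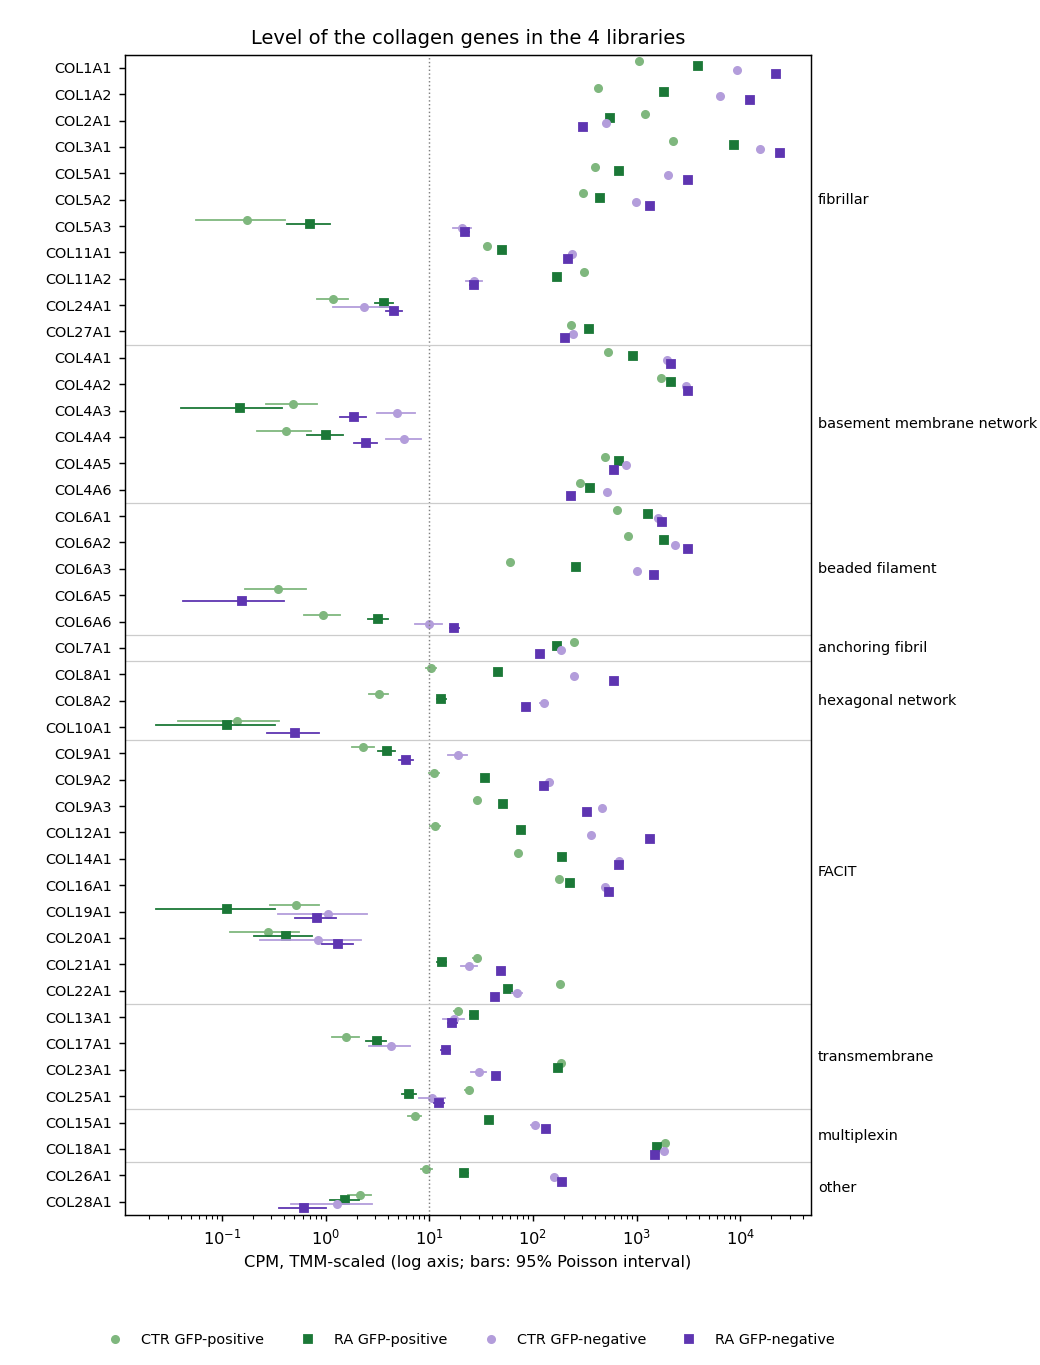
Level of each of the 44 collagen genes in CPM on a log axis, with 1 point per library (green, GFP-positive; purple, GFP-negative; circles, CTR; squares, RA) and its 95% Poisson interval; 3 values with 0 reads are not drawn and the dotted line marks 10 CPM. Most genes show the purple points to the right of the green ones, with COL2A1, COL11A2, COL13A1, COL23A1 and, under 10 CPM, COL28A1 the other way round. The CTR intervals of COL13A1 and of COL28A1 overlap between the fractions.

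The fractions were compared first, GFP-negative minus GFP-positive. In the control 35 collagens reached this limit, of which 22 were higher in GFP-negative cells and 5 were lower. Over all genes 13.3% were higher and 11.9% lower in this comparison. With RA, 35 collagens passed the same limit, 21 were higher in GFP-negative cells and 2 were lower, whereas 12.4% of all genes were higher and 9.97% lower. The median collagen difference was 1.89 on the log2 scale in the control and 1.58 with RA, beside medians over all genes of -0.08 and -0.02. Without any limit on low values, 25 of the 44 genes were higher and 5 lower in the control, beside 10.6% and 8.78% of all genes, and 22 were higher and 2 lower with RA, beside 7.49% and 5.44%. In these bulk libraries, fewer cells of a type and less RNA per cell cannot be told apart. The comparisons use separate libraries. In both, 34 genes passed the limit, of which 19 were higher in GFP-negative cells in both and COL11A2 and COL23A1 were lower in both, beside 8.31% and 6.93% of all genes that passed the limit in both.

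**Figure D3:**
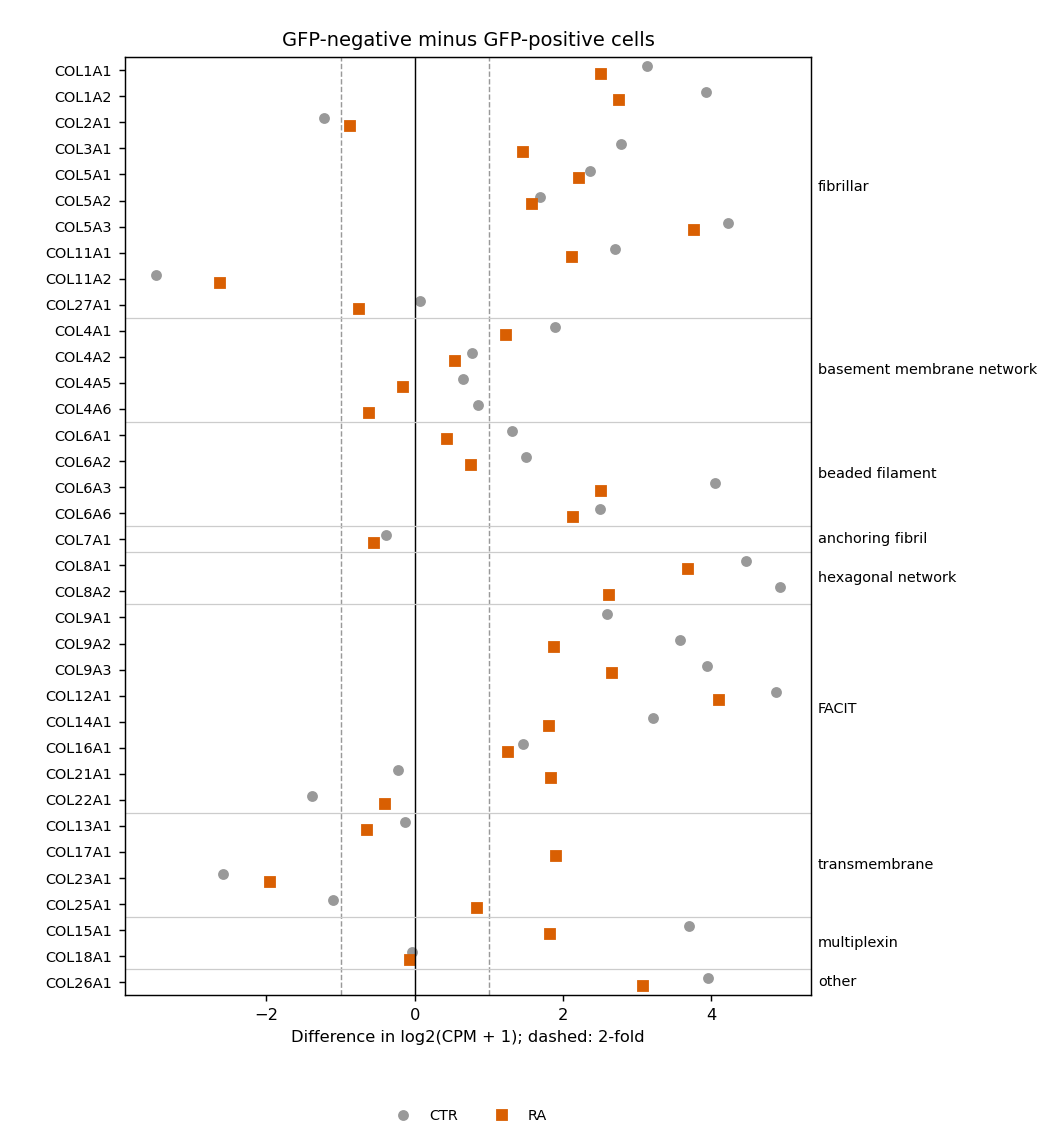
Difference between GFP-negative and GFP-positive cells in log2(CPM + 1) for each collagen gene that reached 10 CPM in the pair, in the control (grey circles) and with RA (orange squares); dashed lines mark 2-fold. COL8A2 and COL12A1 lie farthest to the right in the control, at 4.93 and 4.87, and COL11A2 farthest to the left, at -3.49.

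RA cells were then compared with CTR cells of their own fraction. In GFP-positive cells 32 collagens had at least 10 CPM, 12 were higher with RA and 4 lower, while 4.14% of all genes were higher and 1.67% lower. The 12 were COL1A1, COL1A2, COL3A1, COL6A2, COL6A3, COL8A1, COL8A2, COL9A2, COL12A1, COL14A1, COL15A1 and COL26A1. In GFP-negative cells 36 collagens had at least 10 CPM, 4 were higher with RA and 2 lower, beside 4.95% and 3.18% of all genes, and 30 stayed within 2-fold. Of the 32 genes that passed the limit in both fractions, COL1A1, COL8A1 and COL12A1 were at least 2-fold higher with RA in both, and none was lower in both, beside 0.992% and 0.183% of all genes. The median collagen difference was 0.67 in the GFP-positive and 0.13 in the GFP-negative fraction, beside 0.02 and 0.08 over all genes.

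Marker lists of other cell types differed between the same libraries, not all in the direction of the collagens. The 8 fibroblast and stroma markers, such as DCN, LUM and PDGFRB, summed to 281 CPM in CTR GFP-positive and 819.8 CPM in RA GFP-positive cells, and to 1396 CPM and 3554 CPM in the GFP-negative cells, with none of them at 0 reads. Of these markers, 5 of the 5 with at least 10 CPM were higher with RA in GFP-positive cells and 5 of 8 in GFP-negative cells, beside 4.14% and 4.95% of all genes. TCF21 went the other way in GFP-negative cells, at 23.4 CPM in CTR and 17.0 CPM with RA. PDGFRA was lower in GFP-negative than in GFP-positive cells with RA, at 138.5 CPM against 295 CPM, and also in the control, at 87.3 CPM against 132 CPM, there within 2-fold. The other 7 markers were higher in GFP-negative cells in both comparisons. The 4 smooth muscle markers summed to 476 CPM and 1057 CPM in CTR and RA GFP-positive cells and to 731 CPM and 1387 CPM in the GFP-negative cells, again with none at 0. With RA, 3 of the 4 were higher in GFP-positive cells (4.14% of all genes) and 1 of the 4, TAGLN, in GFP-negative cells (4.95%). Among the 3 was MYH11, the myosin heavy chain of smooth muscle, at 3.35 CPM in CTR and 115 CPM in RA GFP-positive cells and at 23.2 CPM and 28.4 CPM in the GFP-negative cells. CNN1 was at 251 CPM and 274 CPM in CTR and RA GFP-positive cells and at 98.2 CPM and 104 CPM in the GFP-negative cells. It was thus lower in GFP-negative than in GFP-positive cells in the control and with RA, and MYH11 was lower there with RA only. Endothelial markers (5 genes) summed to between 16.3 CPM and 17.1 CPM in GFP-positive cells and between 274 CPM and 283 CPM in GFP-negative cells. Within that sum of the GFP-negative cells KDR was at 204 CPM in CTR and 142 CPM with RA, whereas TIE1 and ERG were more than 2-fold higher with RA. Epicardial and mesothelial markers (5 genes) summed to 59.3 CPM and 60.2 CPM in GFP-positive cells and to 569 CPM in CTR and 348 CPM in RA GFP-negative cells. Within the GFP-positive sum WT1 and TBX18 were lower with RA and ALDH1A2 was higher, at 9.46 CPM in CTR and 39.3 CPM with RA. Endoderm markers (6 genes) summed to 10.8 CPM and 36.9 CPM in CTR and RA GFP-positive cells and to 91.1 CPM and 630.4 CPM in the GFP-negative cells, FOXA2 and APOA2 being at 0 reads in both CTR libraries. AFP, at 2.98 CPM in CTR and 465 CPM in RA GFP-negative cells, and APOA1, at 4.90 CPM and 131 CPM, were higher with RA there, while TTR, at 73.0 CPM and 11.7 CPM, was lower. Neural and eye markers (6 genes, SOX1 at 0 in RA GFP-positive cells) reached 281 CPM in CTR and 115 CPM in RA GFP-negative cells, against 81.1 CPM and 106 CPM in GFP-positive cells. STMN2, a gene of neurons, was higher with RA in both fractions, whereas PAX6, SOX2, DCT and MITF were lower with RA in GFP-negative cells. The 4 surface epithelium markers summed to 4.64 CPM and 9.68 CPM in CTR and RA GFP-positive cells and to 33.2 CPM and 49.8 CPM in the GFP-negative cells. Of the 2 with at least 10 CPM in GFP-negative cells, GRHL2 was higher with RA, at 4.90 CPM in CTR and 16.0 CPM with RA, while KRT5 stayed within 2-fold. The part of any of these cell types in the collagen differences was not tested.

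Among the fibrillar genes, COL3A1 (ENSG00000168542; chr2:189839099-189877472 of GRCh37, plus strand), the chain of type III, was the most abundant collagen per kb of exon in every library. It was at 2247 CPM in CTR GFP-positive, 8757.5 CPM in RA GFP-positive, 15391 CPM in CTR GFP-negative and 24128 CPM in RA GFP-negative cells. By read number it ranked 16th, 7th, 2nd and 1st of all genes in these libraries. The fraction ratio was 6.85 (6.78 to 6.92) in the control and 2.76 (2.74 to 2.77) with RA, and the RA ratio 3.90 (3.86 to 3.93) in the GFP-positive and 1.57 (1.56 to 1.58) in the GFP-negative fraction. The ratio between the fractions was therefore smaller with RA. Of the 11 fibrillar genes, 10 reached 10 CPM in the control libraries, of which 7 were higher and 2 lower in GFP-negative cells, with a median difference of 2.53, beside 13.3% and 11.9% of all genes. With RA, 7 were higher and COL11A2 was lower, beside 12.4% and 9.97%.

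COL1A1 (ENSG00000108821; chr17:48261462-48278993, minus strand) and COL1A2 (ENSG00000164692; chr7:94024207-94060539, plus strand) encode the chains of type I, the main collagen of scar and tendon. COL1A1 was at 1047 CPM in CTR GFP-positive, 3879 CPM in RA GFP-positive, 9212 CPM in CTR GFP-negative and 22020.5 CPM in RA GFP-negative cells. With RA it was 3.71-fold higher in GFP-positive cells (3.66 to 3.75) and 2.39-fold higher in the GFP-negative fraction (2.37 to 2.41). COL1A2 was at 422 CPM, 1856 CPM, 6414 CPM and 12536 CPM in the same order. Its RA ratio was 4.40 (4.32 to 4.49) in GFP-positive cells and 1.95 (1.93 to 1.98) in GFP-negative cells, the latter just within 2-fold. Both genes were lowest in CTR GFP-positive cells and highest in RA GFP-negative cells, and the RA GFP-positive level stayed below both GFP-negative levels.

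Type V collagen starts the assembly of type I fibrils. COL5A1 was at 395 CPM in CTR GFP-positive, 670.0 CPM in RA GFP-positive, 2031 CPM in CTR GFP-negative and 3107 CPM in RA GFP-negative cells, and COL5A2 at 305 CPM, 448 CPM, 991 CPM and 1343 CPM. Both were higher in GFP-negative cells, by 5.15-fold (5.01 to 5.29) and 3.25-fold (3.13 to 3.36) in the control, and neither passed 2-fold with RA in either fraction. COL5A2 lies 19152 bases from COL3A1 on the opposite strand of chromosome 2, and its differences of 0.55 and 0.44 with RA stood beside 1.96 and 0.65 for COL3A1. COL5A3, the third chain of type V, had 5 reads in CTR GFP-positive and 19 in RA GFP-positive cells, but 98 in CTR GFP-negative and 573 in RA GFP-negative cells. That is 20.9 CPM and 22.3 CPM in the GFP-negative cells, with a control fraction ratio near 120 whose interval ran from 49.5 to 377 because of the 5 reads. COL5A3 was thus close to the limit of detection in the GFP-positive libraries, unlike the other type V genes.

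COL2A1 (ENSG00000139219; chr12:48366750-48398337) encodes the fibrillar collagen of cartilage and the vitreous body. It had its highest level in CTR GFP-positive cells, at 1195 CPM, followed by 555 CPM in RA GFP-positive, 511 CPM in CTR GFP-negative and 302 CPM in RA GFP-negative cells. In the control its level in GFP-positive cells was 2.34 times that in GFP-negative cells (2.24 to 2.44). With RA it was lower in GFP-positive cells, at a ratio of 0.465 (0.456 to 0.474). Per kb of exon it was the third collagen of the CTR GFP-positive library, after COL3A1 and COL18A1, and the fifth when the longest transcript was taken as gene length, above COL1A1 by either length. The 6 cartilage markers did not share this order, as they summed to 45.9 CPM in CTR and 41.2 CPM in RA GFP-positive cells and to 111 CPM and 184 CPM in the GFP-negative cells, none at 0. HAPLN1, a link protein of cartilage matrix and the largest part of the sum in every library, was at 42.1 CPM in CTR GFP-positive, 24.6 CPM in RA GFP-positive, 73.9 CPM in CTR GFP-negative and 86.7 CPM in RA GFP-negative cells. SOX9, the transcription factor of cartilage, was at 1.40 CPM in CTR GFP-positive cells and 51.6 CPM in RA GFP-negative cells, and ACAN, the cartilage proteoglycan, was under 1 CPM in both GFP-positive libraries.

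The type XI genes went apart. COL11A1 was at 35.7 CPM in CTR GFP-positive, 49.9 CPM in RA GFP-positive, 239 CPM in CTR GFP-negative and 220.2 CPM in RA GFP-negative cells. COL11A2 (ENSG00000204248; chr6:33130458-33160276) was at 314 CPM, 172 CPM, 27.0 CPM and 27.0 CPM in the same order. In turn COL11A2 was 11.6-fold higher in GFP-positive cells of the control (9.75 to 13.9), and the RA libraries gave 6.38-fold (5.89 to 6.92), while COL11A1 was 6.68-fold and 4.41-fold higher in GFP-negative cells. Per kb, the ratio of COL11A2 to COL11A1 was 10.8 (10.2 to 11.6) in CTR GFP-positive and 4.26 (4.00 to 4.53) in RA GFP-positive cells, but 0.140 (0.115 to 0.168) and 0.151 (0.140 to 0.164) in the GFP-negative cells. Of the pairs drawn in the plot of gene pairs, this was the 1 pair that lay above 1 in both GFP-positive and below 1 in both GFP-negative libraries. COL27A1 stayed between 205 CPM and 347 CPM in all 4 libraries, and COL24A1, with 11 to 118 reads, stayed under 10 CPM.

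The 6 genes of type IV, the basement membrane collagen, lie as 3 pairs that start close together and point away from each other. COL4A1 (ENSG00000187498; chr13:110801310-110959504, minus strand) was at 528 CPM in CTR GFP-positive, 926 CPM in RA GFP-positive, 1961 CPM in CTR GFP-negative and 2172 CPM in RA GFP-negative cells. COL4A2 (ENSG00000134871; chr13:110958159-111165556, plus strand) was at 1738 CPM, 2141 CPM, 2980.2 CPM and 3112 CPM. In the control the GFP-negative cells had 3.71 times the COL4A1 level of GFP-positive cells (3.62 to 3.81) and 1.71 times the COL4A2 level (1.68 to 1.75), although both chains belong to the same trimer. The ratio of COL4A2 to COL4A1 per kb was 2.503 (2.46 to 2.55) in CTR and 1.76 (1.73 to 1.79) in RA GFP-positive cells, and 1.16 (1.13 to 1.19) and 1.09 (1.08 to 1.10) in CTR and RA GFP-negative cells. Antisense genes cover 95 of the 19271 exon bases of COL4A2 in the annotation used here.

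COL4A5 (ENSG00000188153; chrX:107683068-107940775, plus strand) and COL4A6 (ENSG00000197565; chrX:107398837-107682727, minus strand) were the second active pair. COL4A5 was at 501 CPM in CTR GFP-positive, 669 CPM in RA GFP-positive, 789 CPM in CTR GFP-negative and 599.9 CPM in RA GFP-negative cells, and COL4A6 at 284 CPM, 358 CPM, 513 CPM and 234 CPM. With RA, COL4A6 was lower in GFP-negative cells, at a ratio of 0.456 (0.435 to 0.479), and within 2-fold in GFP-positive cells, at 1.26 (1.23 to 1.30). Per kb, COL4A1 was below COL4A5 in CTR GFP-positive cells, with a ratio of 0.854 (0.834 to 0.873), close to it in RA GFP-positive cells at 1.12 (1.10 to 1.14), and above it in the GFP-negative cells, at 2.01 (1.94 to 2.09) in CTR and 2.93 (2.88 to 2.98) with RA. COL4A3 and COL4A4, chains known from the kidney filter, had between 4 and 63 reads and stayed under 10 CPM in every library.

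Sequence from between the starts of each pair is shown because the neighbouring genes share it as upstream sequence. The COL4A2 to COL4A1 ratio differed between libraries, whereas COL4A3 and COL4A4 had too few reads to compare. RefSeq promoters (250 bases before to 50 after the start, from GRCh38.p14) were matched by symbol for 32 of the 44 collagens, those of type IV among them, and the stretches printed here were found again as exact single matches on their chromosome in GRCh37. They read along the plus strand, and capitals mark the letters CCAAT or GGGCGG or their reverse complements ATTGG and CCGCCC. The first is the whole stretch of 126 bases between the RefSeq starts of COL4A1 and COL4A2 (chr13:110959505-110959630). The GENCODE annotation, from which the gene coordinates are taken, begins COL4A2 farther upstream, inside COL4A1, so that the genes overlap there. The others are the 150 bases before COL4A3 (chr2:228029190-228029339), out of 418 bases to the COL4A4 start, and the 150 bases before COL4A5 (chrX:107682918-107683067), out of 379 bases to the nearest COL4A6 start.
COL4A1 and COL4A2: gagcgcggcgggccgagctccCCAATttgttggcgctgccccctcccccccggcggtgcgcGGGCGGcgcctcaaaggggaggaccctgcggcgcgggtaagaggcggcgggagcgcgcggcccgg
COL4A3: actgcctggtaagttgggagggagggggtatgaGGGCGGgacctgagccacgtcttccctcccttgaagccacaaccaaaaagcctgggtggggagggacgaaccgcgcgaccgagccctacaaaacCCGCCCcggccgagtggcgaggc
COL4A5: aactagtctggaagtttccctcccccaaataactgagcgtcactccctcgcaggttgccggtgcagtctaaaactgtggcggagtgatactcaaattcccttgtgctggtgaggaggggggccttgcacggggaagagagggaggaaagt

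The COL4A1 and COL4A2 stretch has 80.2% G or C and 20 CpG dinucleotides, the COL4A3 stretch 66.0% and 11, and the COL4A5 stretch 55.3% and 5. Over the full 300 bases, the promoters of COL4A1 and COL4A2 held 45 CpG each, those of COL4A3 and COL4A4 24 and 29, that of COL4A5 8 and both listed starts of COL4A6 5 and 7, beside a median of 14 over all 35116 promoters of this length. In 300 bases, CCAAT or ATTGG occurs in 34.6% of all promoters, GGGCGG or CCGCCC in 45.0% and TATAAA or TTTATA in 11.5%. Over that length COL4A5 held CCAAT or ATTGG 2 times, outside the stretch printed. Of the COL4A6 starts, 1 held CCAAT or ATTGG 3 times and the other GGGCGG or CCGCCC 1 time. COL4A1 held 1 and 2 of these, COL4A2 1 and 1, COL4A3 0 and 2, and COL4A4 neither. None of the type IV promoters held TATAAA or TTTATA. The matches describe letters in a window, since no factor binding was measured.

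Type VI forms beaded filaments next to cells. COL6A1 (ENSG00000142156; chr21:47401684-47424964) was at 650.5 CPM in CTR GFP-positive, 1301 CPM in RA GFP-positive, 1620.4 CPM in CTR GFP-negative and 1758 CPM in RA GFP-negative cells. COL6A2, 93062 bases away on the same strand, was at 830.2 CPM, 1852 CPM, 2357 CPM and 3129 CPM. COL6A3 (ENSG00000163359; chr2:238232646-238322971) was at 59.8 CPM, 259 CPM, 1003 CPM and 1480.1 CPM. In the control it was 16.8-fold higher in GFP-negative cells (15.9 to 17.7), against 2.49-fold for COL6A1 and 2.84-fold for COL6A2. Within GFP-positive cells it was 4.33-fold higher with RA (4.10 to 4.57), whereas COL6A2 was 2.23-fold higher (2.20 to 2.27) and COL6A1 lay at the limit (1.96 to 2.04), just short of 2-fold in CPM + 1. The COL6A1 to COL6A3 ratio per kb was 42.3 (40.2 to 44.4) in CTR GFP-positive, 19.5 in RA GFP-positive, 6.28 (6.05 to 6.51) in CTR GFP-negative and 4.62 (4.55 to 4.68) in RA GFP-negative cells. The COL6A2 to COL6A1 ratio per kb, by contrast, stayed between 1.32 and 1.85. COL6A6 was at 10.01 CPM and 17.5 CPM in CTR and RA GFP-negative cells and at 0.942 CPM and 3.22 CPM in GFP-positive cells. COL6A5 had 10 reads in CTR GFP-positive, 4 in RA GFP-negative and 0 in the other libraries, where 3 reads would be 0.112 CPM in RA GFP-positive and 0.639 CPM in CTR GFP-negative cells.

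COL7A1, whose product anchors epithelial basement membranes, differed little: it was at 247 CPM in CTR GFP-positive, 172 CPM in RA GFP-positive, 188 CPM in CTR GFP-negative and 117 CPM in RA GFP-negative cells, so that RA libraries were lower in both fractions. Of the hexagonal network genes, COL8A1 (ENSG00000144810; chr3:99357319-99518070), a vessel wall collagen, was at 10.4 CPM in CTR GFP-positive, 45.8 CPM in RA GFP-positive, 250.2 CPM in CTR GFP-negative and 599.7 CPM in RA GFP-negative cells. It was higher with RA in both fractions, 4.42-fold (3.89 to 5.03) and 2.40-fold (2.26 to 2.55). COL8A2 was at 3.25 CPM, 13.1 CPM, 128 CPM and 85.3 CPM in the same order, lower with RA in the GFP-negative fraction but within 2-fold. Its fraction ratio of 39.4 in the control (31.7 to 49.6) went with 6.52 (5.82 to 7.31) with RA. The ratio of COL8A1 to COL8A2 per kb was 0.970 (0.879 to 1.07) in CTR and 3.49 (3.34 to 3.65) in RA GFP-negative cells. COL10A1, the collagen of hypertrophic cartilage, had between 0 and 13 reads.

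Of the FACIT genes, COL12A1 (ENSG00000111799; chr6:75794042-75915983, minus strand), which coats fibrils in tissue under tension, was at 11.3 CPM in CTR GFP-positive, 77.2 CPM in RA GFP-positive, 361 CPM in CTR GFP-negative and 1348 CPM in RA GFP-negative cells. Its RA difference was the largest of any collagen in either fraction, 6.80-fold (6.05 to 7.67) and 3.73-fold (3.56 to 3.92), and its fraction ratio was 31.8 (28.2 to 35.9) in the control and 17.5 (16.7 to 18.3) with RA. COL14A1 was at 71.6 CPM, 189.7 CPM, 674 CPM and 671 CPM, with an RA ratio of 2.65 (2.52 to 2.79) in the GFP-positive and 0.995 (0.958 to 1.03) in the GFP-negative fraction. COL16A1 was at 179.7 CPM, 228 CPM, 495 CPM and 545 CPM and was within 2-fold with RA in both fractions. These genes were lowest in CTR GFP-positive cells, and COL12A1 alone among them separated the GFP-negative libraries by more than 2-fold. Of the 10 FACIT genes, 8 reached 10 CPM in the control libraries, of which 6 were higher in GFP-negative cells and COL22A1 was lower, beside 13.3% and 11.9% of all genes.

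Type IX decorates the type II fibrils of cartilage. COL9A2 was at 11.2 CPM in CTR GFP-positive, 34.1 CPM in RA GFP-positive, 144 CPM in CTR GFP-negative and 129 CPM in RA GFP-negative cells, and COL9A3 at 29 CPM, 51.6 CPM, 461 CPM and 333 CPM. COL9A1 was at 2.30 CPM, 3.89 CPM, 19.0 CPM and 5.96 CPM, and its ratio with RA in GFP-negative cells was 0.315 (0.241 to 0.413), resting on 89 reads in the control. In the control the type IX genes were 8.23-fold to 15.9-fold higher in GFP-negative cells, while COL2A1, the partner of type IX in cartilage, was lower there. COL22A1 (ENSG00000169436; chr8:139600478-139926284), known from muscle-tendon junctions, shared the direction of COL2A1. It was at 185 CPM in CTR GFP-positive, 57.7 CPM in RA GFP-positive, 69.9 CPM in CTR GFP-negative and 43.3 CPM in RA GFP-negative cells, and its RA ratio in GFP-positive cells was 0.312 (0.295 to 0.331). COL21A1, named after its values were seen, was at 28.6 CPM, 13.2 CPM, 24.3 CPM and 49.4 CPM and was lower with RA in GFP-positive cells (0.461, 0.405 to 0.522), while its RA ratio in the GFP-negative fraction (2.03, 1.68 to 2.49) did not reach 2-fold in CPM + 1. COL19A1 and COL20A1 had 3 to 34 reads.

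Of the transmembrane collagens, COL23A1 (ENSG00000050767; chr5:177664477-178017394) was at 185 CPM in CTR GFP-positive, 175 CPM in RA GFP-positive, 30.0 CPM in CTR GFP-negative and 44.4 CPM in RA GFP-negative cells. It was 6.17-fold higher in GFP-positive cells of the control (5.22 to 7.35), and with RA the ratio was 3.95 (3.70 to 4.22). The other transmembrane genes are named after their values were seen. COL25A1 was at 24.1 CPM, 6.43 CPM, 10.6 CPM and 12.4 CPM in the same order, with an RA ratio of 0.267 (0.224 to 0.316) in GFP-positive cells. COL13A1, found at muscle synapses, stayed between 16.8 CPM and 26.8 CPM, and COL17A1, a collagen of epithelial hemidesmosomes, was at 14.4 CPM in RA GFP-negative cells and under 10 CPM elsewhere. COL17A1 was among the genes called higher with RA in GFP-negative cells, 3.38-fold (2.15 to 5.59), resting on 20 reads in the control.

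The multiplexins, which border basement membranes, behaved unlike each other. COL15A1 was at 7.22 CPM in CTR GFP-positive, 37.5 CPM in RA GFP-positive, 105 CPM in CTR GFP-negative and 135 CPM in RA GFP-negative cells. Its RA ratio was 5.19 (4.47 to 6.06) in the GFP-positive and 1.28 (1.17 to 1.41) in the GFP-negative fraction. COL18A1 (ENSG00000182871; chr21:46825080-46933634), the source of endostatin, was at 1894 CPM, 1578 CPM, 1839 CPM and 1514 CPM. Its fraction ratios of 0.971 (0.949 to 0.993) and 0.959 (0.946 to 0.973) were the closest to 1 of the collagens that reached 10 CPM. Per kb it stood second to COL3A1 in CTR GFP-positive cells. SLC19A1, on the opposite strand, covers 1563 of its 8464 exon bases (18.5%) and had 161 to 2095 reads, and because the counting ignored strand, reads on those bases are uncertain. COL26A1 was at 9.39 CPM, 21.9 CPM, 159.7 CPM and 192 CPM, with a fraction ratio of 17.0 in the control (14.8 to 19.6), and COL28A1 had 6 to 61 reads.

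**Figure D4:**
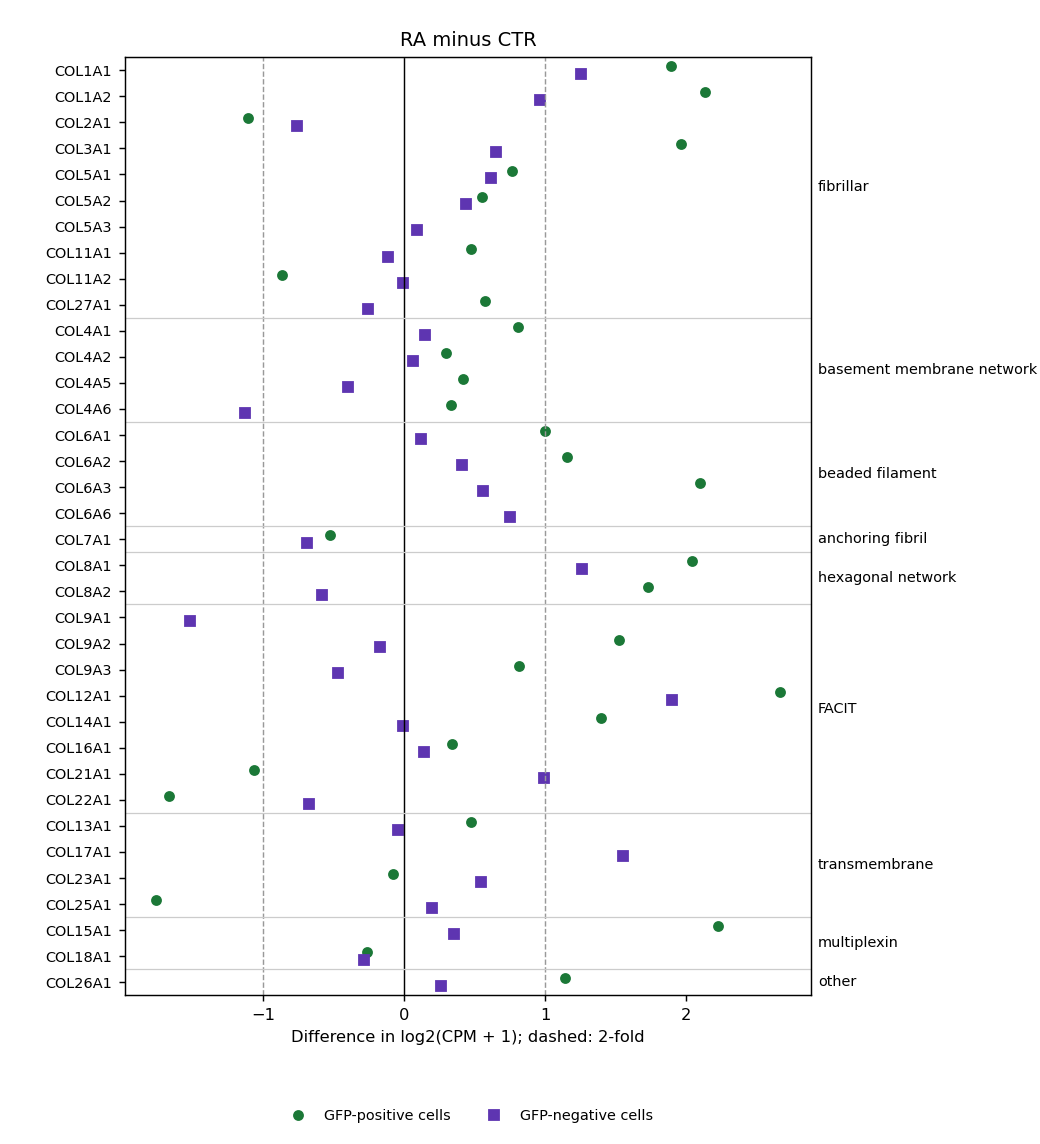
Difference between RA and CTR cells in log2(CPM + 1) for each collagen gene that reached 10 CPM in the pair, in GFP-positive (green circles) and GFP-negative cells (purple squares); dashed lines mark 2-fold. COL12A1 lies farthest to the right in both fractions, at 2.66 and 1.90, and COL25A1 and COL22A1 farthest to the left in GFP-positive cells, at -1.76 and -1.66.

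**Figure D5:**
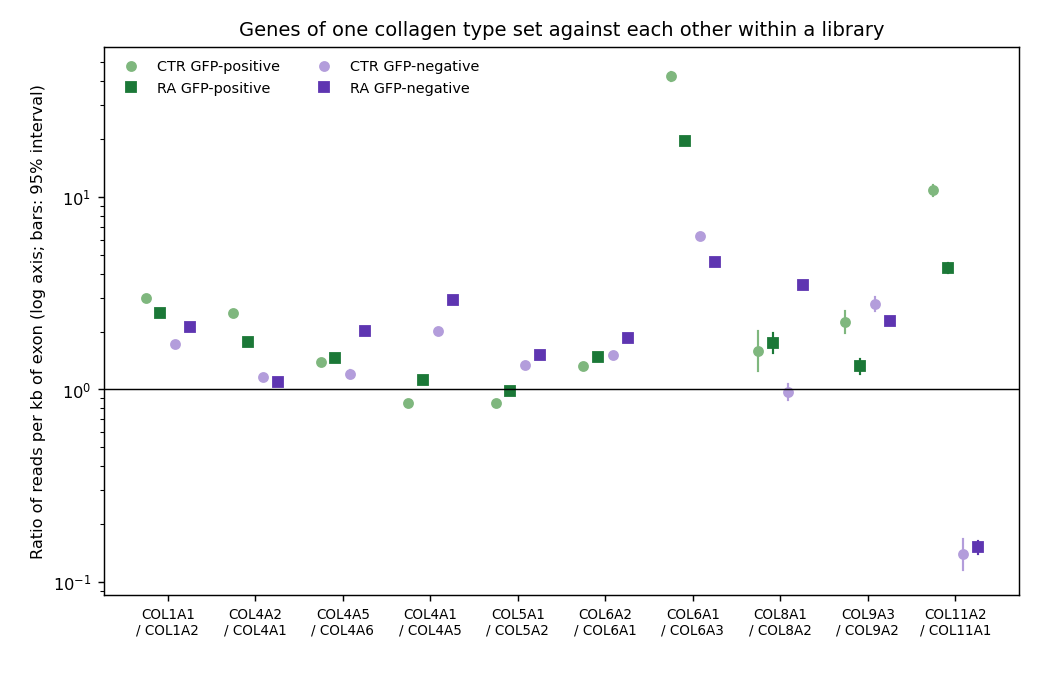
Ratio of reads per kb of exon for 10 pairs of genes within each library on a log axis, with 95% intervals; colours and symbols mark the libraries as in the plot of levels. COL11A2 over COL11A1 lies at 10.8 and 4.26 in GFP-positive cells and at 0.140 and 0.151 in GFP-negative cells, and COL6A1 over COL6A3 at 42.3 and 19.5 against 6.28 and 4.62.

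Across the classes, 36 collagens reached 10 CPM in a library, and 24 of them had higher CPM in each GFP-negative library than in each GFP-positive library, beside 31.1% of all genes. They included the genes of types I, III, V, VIII and IX, COL12A1 and COL14A1. COL2A1, COL11A2, COL13A1 and COL23A1 had the reverse order, which 36.1% of all genes showed. The fraction ratio of COL13A1 in the control was 0.905, with an interval (0.708 to 1.145) that holds 1. COL4A2, COL4A5, COL7A1, COL13A1, COL18A1 and COL27A1 stayed within 2-fold in all 4 comparisons, a pattern for which the share of all genes was not counted. The type I subunits themselves were not in fixed proportion, as the COL1A1 to COL1A2 ratio per kb was 2.98 (2.92 to 3.04) in CTR GFP-positive, 2.51 (2.48 to 2.54) in RA GFP-positive, 1.72 (1.70 to 1.75) in CTR GFP-negative and 2.11 (2.10 to 2.12) in RA GFP-negative cells. COL5A1 to COL5A2 was 0.848, 0.981, 1.34 and 1.52 in the same order. Ratios per kb depend on the lengths used, whereas the order of the libraries does not. With the longest transcript as length, the COL4A1 to COL4A5 ratio in CTR GFP-positive cells was 1.05 instead of 0.854 and the COL8A1 to COL8A2 ratio in CTR GFP-negative cells 1.60 instead of 0.970. The COL5A1 to COL5A2 ratios of CTR and RA GFP-positive cells likewise moved above 1, to 1.05 and 1.21. Of the ratios printed here, these 4 changed sides of 1.

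Collagen chains are hydroxylated, folded and exported before they reach the matrix, and genes of these steps were examined as lists. Of 19 genes for chain modification and folding, 18 had at least 10 CPM in the control libraries and 2 were higher in GFP-negative cells, P3H1 (75.5 CPM in GFP-positive and 225 CPM in GFP-negative cells) and P3H3 (34.2 CPM and 164 CPM), both prolyl 3-hydroxylases. This count stood beside 13.3% of all genes, a share near that of the list. With RA 19 passed the limit and 5 were higher in GFP-negative cells, beside 12.4% of all genes, the median difference being 0.78 beside 0.34 in the control. SERPINH1, the collagen chaperone HSP47, was at 501 CPM in CTR GFP-positive, 697 CPM in RA GFP-positive, 893 CPM in CTR GFP-negative and 1405 CPM in RA GFP-negative cells. Between RA and CTR the medians were 0.16 in the GFP-positive and 0.37 in the GFP-negative fraction, and no gene of this list passed 2-fold, where the shares of all genes (4.14% higher and 1.67% lower, and 4.95% and 3.18%) leave few calls for a list of this size. Of 4 export genes, 3 had at least 10 CPM and stayed within 2-fold in all 4 comparisons, for which no share of all genes was counted.

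Of 13 genes for propeptide cleavage and cross-linking, 11 had at least 10 CPM, 5 were higher and 2 lower in GFP-negative cells of the control, and 7 were higher and 2 lower with RA, where all genes gave 13.3% higher and 11.9% lower, and 12.4% and 9.97%. LOX, the enzyme that cross-links fibrils, was at 14.1 CPM in CTR GFP-positive, 28.4 CPM in RA GFP-positive, 364 CPM in CTR GFP-negative and 305 CPM in RA GFP-negative cells. LOXL4, a related oxidase, and ADAMTS14, a procollagen protease, were the 2 lower genes in both comparisons, LOXL4 at 57.1 CPM and 84.1 CPM in GFP-positive and 10.0 CPM and 25.2 CPM in GFP-negative cells, CTR first. PCOLCE, which enhances C-propeptide cleavage, was 3.18-fold higher with RA in GFP-negative cells. Between RA and CTR, 1 of 10 was higher in GFP-positive cells (LOXL1), and 2 were higher and 1 lower in GFP-negative cells. Over all genes 4.14% were higher in GFP-positive cells, and 4.95% were higher and 3.18% lower in GFP-negative cells, so that few genes carry these counts.

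Among 10 collagen receptors, 7 had at least 10 CPM in GFP-positive cells and 3 were higher with RA (4.14% of all genes), ITGA1, ITGA11 and MRC2. In GFP-negative cells none of 7 passed 2-fold, beside 4.95% of all genes higher and 3.18% lower, a count that so short a list can give at those shares. ITGA11, the integrin subunit of fibroblasts that binds fibrillar collagen, was at 6.81 CPM in CTR GFP-positive, 28.4 CPM in RA GFP-positive, 134 CPM in CTR GFP-negative and 152 CPM in RA GFP-negative cells. DDR1 and DDR2, the receptor kinases for collagen, stayed within 2-fold in all 4 comparisons. Of 10 genes of collagen breakdown and its inhibitors, 5 of 6 were higher in GFP-negative cells of the control (13.3% of all genes) and 6 of 8 with RA (12.4% of all genes), where TIMP3, an inhibitor held in the matrix, was lower. The inhibitors TIMP1 and TIMP2 were among the 5 in the control, and TIMP2 among the 6 with RA. MMP2 and MMP14, both higher with RA in GFP-positive cells, were at 55.4 CPM and 97.6 CPM in CTR and 174 CPM and 219 CPM in RA GFP-positive cells. MMP8 and MMP13 had no reads in at least 1 library each and stayed under 10 CPM. ITGA11 and MMP2 thus had the same order of libraries as COL6A3, an order that COL1A1 and COL1A2 also had and that DDR1 and TIMP3 did not. The share of all genes with this order was not counted.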

How the data were processed

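Each of the 4 populations sorted from NKX2.5:GFP hESC cultures gave 1 RNA library. According to the methods and labels, the authors aligned trimmed paired reads to a custom hg19 genome with GSNAP, kept unique positions, sorted with SAMtools 0.1.18 and used HTSeq 0.6.1p1 on Ensembl genes, ignoring strand; the deposited values are raw read counts per gene. The Ensembl release is not given in the sources used here.

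Symbols were matched by Ensembl identifier (55538 of 60234 genes). Exon lengths, overlaps and coordinates come from GENCODE on GRCh37. CPM used TMM factors of the 4 libraries (0.951 to 1.07) from edgeR 4.0.16 in R 4.3.3. No test was made, and the additive model of treatment and fraction was not fitted. Named with values were the 32 collagens with at least 50 CPM in a library or a 4-fold difference in a comparison. The remaining 12 are given for completeness, 8 of them, under 10 CPM in every library, by read numbers, and 4 after their values were seen. The members, lists and rules were chosen with earlier results of these data known.

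Other scalings (DESeq2 1.42.0 among them), pseudocounts, limits on low values and a 4-fold threshold were tried. The procedure was tested on simulated data. Depth sets the precision: 3 reads correspond to 0.105 to 0.117 CPM in the deeper libraries and 0.639 CPM in the smallest. Amplified reads are not independent molecules. Figures used matplotlib 3.10.9.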

Additional observations from a re-analysis of the deposited data

Results flagged for a closer look

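Several collagens differed in opposite directions in the fractions when RA was compared with CTR cells, with each interval of a ratio on its own side of 1. No test of fraction against fraction was made, and each value rests on 1 library against another. The share of all genes with opposite directions was not counted, so whether collagens differ from other genes in this cannot be told. The log2 difference of COL21A1 was -1.06 in the GFP-positive and 0.99 in the GFP-negative fraction. COL8A2 differed by 1.73 and -0.58, and COL4A6 by 0.34 and -1.13, GFP-positive cells first. The type IX genes COL9A2 and COL9A3 differed by 1.52 and 0.81 in GFP-positive cells and by -0.17 and -0.47 in GFP-negative cells. COL27A1 differed by 0.57 and -0.25, COL11A1 by 0.47 and -0.12, and COL4A5 by 0.42 and -0.40. COL23A1 differed by -0.079 and 0.55. Of these values, 4 pass 2-fold and the others lie within it.

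Arranged as fraction differences, the same 4 libraries gave opposite directions in the control and with RA for 3 genes, again without a test. The share of all genes was not counted here either. For COL4A5 and COL4A6 this restates the values above. GFP-negative minus GFP-positive cells gave 0.65 for COL4A5 in the control and -0.16 with RA, 0.85 and -0.61 for COL4A6, and -1.11 and 0.85 for COL25A1. The CTR GFP-negative library, the smallest, had 3706 reads for COL4A5, 2408 for COL4A6 and 50 for COL25A1.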

How the results depend on the processing

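The numbers of collagens higher and lower stayed within 1.5 times of those reported under 6 other scalings, 2 other pseudocounts and 2 other limits on low values. With a 4-fold threshold, RA gave 5 higher and 0 lower in the GFP-positive fraction and 0 and 0 in the GFP-negative fraction, while 17 were higher and 2 lower between the fractions of the control, and 12 and 1 with RA, a stricter threshold passing fewer genes by construction. Over all genes these shares were 1.27% and 0.17%, 1.30% and 0.50%, 6.34% and 3.73%, and 4.84% and 3.11%. Without mitochondrial reads the collagen share was 1.60% in CTR GFP-positive, 3.02% in RA GFP-positive, 5.96% in CTR GFP-negative and 8.53% in RA GFP-negative cells, in the same order. The median RA difference in GFP-negative cells turned to -0.0065 with scaling by library size alone, where the median of all genes moved from 0.08 to -0.06. The median of all genes between the fractions of the control likewise moved from -0.08 to 0.03. Of 128 differences of the 32 named genes, 124 kept their sign under 8 scalings and pseudocounts. The exceptions were COL5A3, COL4A2 and COL6A1 with RA in GFP-negative cells and COL18A1 between the fractions of the control, all within 0.12 of 0. An additive model that takes both fractions of a treatment as a pair would leave 1 residual degree of freedom and was not fitted. Leaving out a library removes the comparisons it enters, since each condition has 1. Depth limits CTR GFP-negative values, where 4 reads are 0.852 CPM: at that level 37 collagens were detected in CTR GFP-positive, 38 in RA GFP-positive, 42 in CTR GFP-negative and 40 in RA GFP-negative cells.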
